A study of Homo sapiens with 16 samples.

Results

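The human mitochondrial genome carries 37 genes, which encode 13 subunits of the respiratory chain and ATP synthase, 2 ribosomal RNAs (rRNAs) and 22 transfer RNAs (tRNAs). Their transcripts were followed in U2OS, a human osteosarcoma line. The members were taken as every row of the deposited expression table whose GENCODE 29 gene lies on the mitochondrial chromosome, with names starting MT-, and all 37 were found among 58735 genes. Transfection was with a control siRNA that has no target (siNT) or with one that targets SETD2 (siSETD2), the histone methyltransferase that makes H3K36me3, 48 h before collection. Over the final 4 h the cells had no drug, HU (hydroxyurea) at 2 mM, VE-822 at 2 µM, or the pair at these doses. HU inhibits ribonucleotide reductase and so lowers the supply of deoxynucleotides. VE-822 is an inhibitor of the checkpoint kinase ATR. Each of the 8 groups had 2 libraries, R1 and R2, or 16 in all. Nothing in the labels states that these were separate cultures, and p-values then measure only the spread between libraries, which may be technical.

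Both strands of the mitochondrial genome are transcribed by the polymerase POLRMT with the factors TFAM and TFB2M into long transcripts that span many genes. RNase P and RNase Z cut the tRNAs out of these transcripts, which frees the mRNAs and rRNAs that lie between them, and each tRNA then receives its CCA end from TRNT1. Most mitochondrial mRNAs are polyadenylated by MTPAP and are held stable by LRPPRC with SLIRP. The levels of single mitochondrial RNAs therefore reflect both transcription and the fate of each RNA after cleavage.

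Values are FPKM, fragments scaled to gene length and to a size for each library. That size followed median-of-ratios factors (median ratio of a library's genes to their mean over libraries), not fragment totals. It was 0.940 (siNT with HU R2) to 1.07 (siSETD2 with HU R1) times the total. Comparisons were made on log2(FPKM + 1) with limma over the 13088 genes whose mean reached 1 FPKM. All 37 members passed this filter. A call is an adjusted p-value (Benjamini-Hochberg over the 13088 genes) under 0.05. Library sizes lay between 22310806 and 31101932 fragments. The 4 libraries given VE-822 alone stood apart from the other 12: 24.7% of the 13088 genes differed between VE-822 alone and untreated cells, against 0.0382% between HU with VE-822 and untreated cells, and the labels name no batch. In the other 6 groups libraries of equal number deviated together, so values are also given from a fit with the replicate number as a block in these 6 groups, called the blocked fit. SETD2 itself stood at 7.34 to 9.25 FPKM with siNT and at 2.01 to 4.62 FPKM with siSETD2. Of the markers of a mesenchymal line, VIM (77.3 to 167 FPKM), SPARC (89.2 to 249.8), CDH2 (31.6 to 64.4), FN1 (6.91 to 51.1) and RUNX2 (0.833 to 6.91) were present and TWIST1 was at 0 to 0.0752 FPKM. EPCAM lay at 1.52 to 2.18 FPKM, and CDH1, KRT5, PTPRC, CD3E, ALB, APOA1 and PECAM1 were each below 0.5 FPKM in all 16 libraries.

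The tRNA genes on which the drug comparisons turn are shown here 5′ to 3′ along their own strand, as in the GENCODE 29 transcripts (GRCh38), with the anticodon in capitals. MT-TG lies at chrM:9991-10058 between MT-CO3 and MT-ND3, and MT-TR at chrM:10405-10469 between MT-ND3 and MT-ND4L. MT-TH (chrM:12138-12206), MT-TS2 (chrM:12207-12265) and MT-TL2 (chrM:12266-12336) abut one another without a spacer base between MT-ND4 and MT-ND5. These 5 genes are on the plus strand.
MT-TG: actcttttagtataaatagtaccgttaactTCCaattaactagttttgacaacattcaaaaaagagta
MT-TR: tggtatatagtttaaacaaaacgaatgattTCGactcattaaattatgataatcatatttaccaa
MT-TH: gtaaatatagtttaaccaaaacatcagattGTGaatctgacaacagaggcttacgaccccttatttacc
MT-TS2: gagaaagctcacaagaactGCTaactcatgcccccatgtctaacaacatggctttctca
MT-TL2: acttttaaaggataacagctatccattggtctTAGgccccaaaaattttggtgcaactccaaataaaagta
For contrast, MT-TN (chrM:5657-5729) and MT-TC (chrM:5761-5826) are minus-strand genes with 31 bases between them, in the tRNA cluster between MT-ND2 and MT-CO1, and were among the most abundant tRNA genes.
MT-TN: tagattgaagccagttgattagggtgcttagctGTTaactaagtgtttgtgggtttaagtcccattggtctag
MT-TC: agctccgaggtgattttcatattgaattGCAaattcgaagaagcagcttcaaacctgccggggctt
The MT-TG, MT-TR, MT-TH, MT-TS2 and MT-TL2 genes are 59 to 71 bases long. Their GC content is 26.5%, 23.1%, 36.2%, 45.8% and 35.2% in that order, against 41.1% for MT-TN and 45.5% for MT-TC. MT-TS2 is thus above both, and the GC content of the other tRNA genes was not compared.

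Mitochondrial genes had the highest FPKM values in these libraries. The 18 genes with the highest mean FPKM were all members, as were 20 of the top 100. Among the 3 cytochrome c oxidase subunits, MT-CO1 lay at 16563 to 29109 FPKM (median 23335), MT-CO2 at 12808 to 27013 (median 19616) and MT-CO3 at 10551 to 26267 (median 20491). The ATP synthase subunits MT-ATP6 and MT-ATP8 had medians of 15439 and 1655 FPKM, and MT-CYB, the cytochrome b of complex III, had a median of 6064 FPKM. The 7 complex I subunits ranged from MT-ND4 (median 12083), MT-ND4L (10834), MT-ND2 (9007), MT-ND3 (7822) and MT-ND1 (7458) down to MT-ND5 (3106) and MT-ND6 (3079). The ranges of MT-ND5 (2016 to 3905 FPKM) and MT-ND6 (1966 to 4037 FPKM) overlapped almost wholly, although MT-ND6 is the one protein gene on the minus strand.

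The large-subunit rRNA MT-RNR2 lay at 7324 to 20804 FPKM (median 12830.1) and the small-subunit rRNA MT-RNR1 at 2010.2 to 4918 FPKM (median 3261). The ratio of MT-RNR2 to MT-RNR1 lay between 2.97 and 4.69 (median 4.17). The rRNAs were thus not above the mRNAs of the cytochrome c oxidase subunits. The labels give total RNA as the molecule and name the library kit, while a step that selects or removes RNA is not given in the sources used here.

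The tRNA genes spanned 3 orders of level. MT-TC (median 3490.2 FPKM), MT-TN (2716) and MT-TP (2325), all on the minus strand, stood at the level of the lower mRNAs, followed by MT-TL1 (670.4) and MT-TY (303). The next were MT-TH (124), MT-TI (68.5), MT-TG (68.03), MT-TV (63.5), MT-TD (58.9), MT-TR (58.6), MT-TM (48.6), MT-TT (42.3), MT-TS2 (35.5) and MT-TE (33.5). MT-TS1 (32.5), MT-TQ (25.8), MT-TL2 (24.9), MT-TK (13.7), MT-TW (11.1), MT-TA (4.94) and MT-TF (3.08) were lower still, and neighbours in this order overlapped in range except MT-TP and MT-TL1. In all, 16 of 22 tRNA genes had a mean under 100 FPKM. MT-TF was counted with 0 to 11 fragments per library. In 1 library, siNT with HU R1, it had 0 of 25310872 fragments, which allows up to 3 and covers counting error only.

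**Figure D1:**
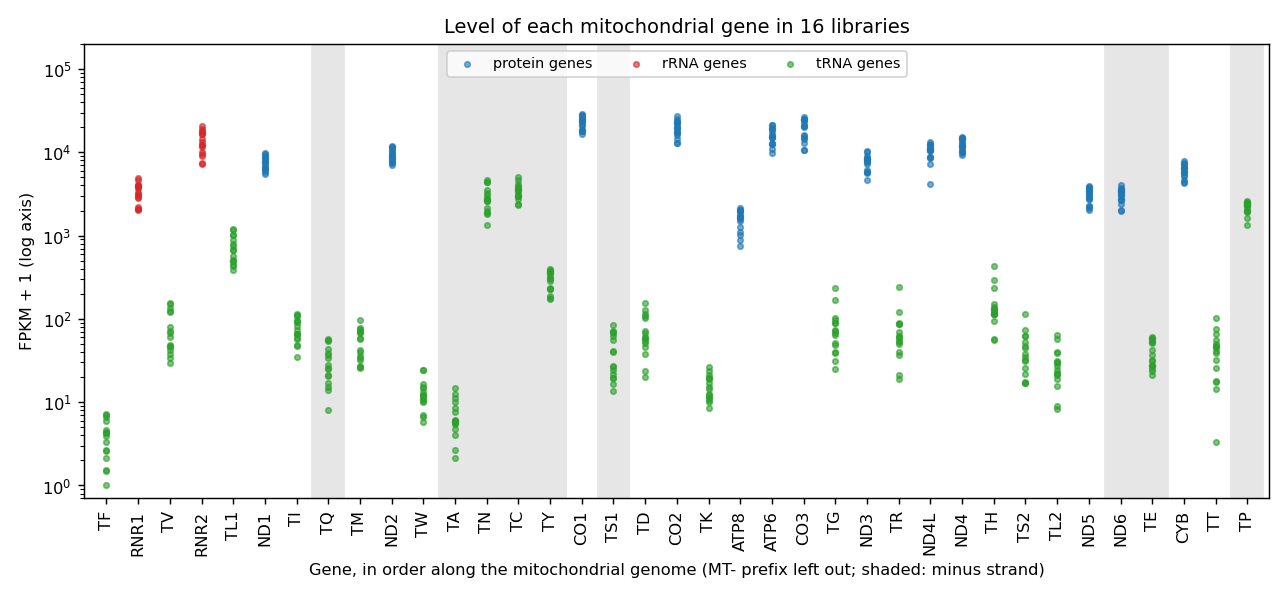
FPKM + 1 (log axis) of the 37 mitochondrial genes in genome order, 1 point per library (16 libraries), coloured by class, with minus-strand genes shaded. mRNAs and rRNAs lie together at the top, and tRNA genes range from MT-TF, with a median of 3.08 FPKM, to MT-TC, with a median of 3490.2 FPKM.

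The largest overlap of genes is that of MT-ATP8 and MT-ATP6, which share 46 bases (chrM:8527-8572). It is shown with the start codon of MT-ATP6 and the stop codon of MT-ATP8 in capitals.
MT-ATP8 and MT-ATP6 overlap: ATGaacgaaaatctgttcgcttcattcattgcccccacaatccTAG
In these libraries MT-ATP6 exceeded MT-ATP8 by 7.54 to 17.9 times per base (median 9.95). Both reading frames lie on 1 mRNA, and how fragments over shared bases were assigned is not given in the sources used here, so their levels are uncertain, as are those of MT-ND4L and MT-ND4, which share 7 bases and had a ratio of 0.423 to 1.04. Of the 13 protein genes, 7 end in a complete stop codon in the genome sequence, while 5 end in a lone T and MT-ND1 ends in TA, whose stop codons are completed by polyadenylation. Whether strand was used in counting is not given either, so plus-strand and minus-strand RNA over a gene cannot be told apart.

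The mitochondrial share of all fragments was 10.9% to 19.2%. In the order siNT R1, siNT R2, siSETD2 R1 and siSETD2 R2, which is kept for all values below, it was 14.7%, 18.5%, 13.2% and 17.04% untreated and 12.4%, 17.6%, 11.6% and 16.7% with HU. With VE-822 it was 19.2%, 17.8%, 16.9% and 15.9%, and with HU and VE-822 15.6%, 15.7%, 10.9% and 12.4%. The share was lower with siSETD2 than with siNT in 8 of 8 libraries compared by number, by 0.785 to 4.69 percentage points, and the VE-822 libraries are compared here by number only. The siNT and siSETD2 libraries overlapped, however, since R1 and R2 of untreated and of HU-treated groups differed by more than the siRNAs did. The 95% binomial intervals (Wilson) were within 0.0153 points of each share, and they cover counting error only. The tRNA genes together gave 0.0526% to 0.0998% of fragments. In bulk RNA, fewer mitochondrial transcripts per cell, fewer cells that are rich in them and more of all other RNA cannot be told apart.

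**Figure D2:**
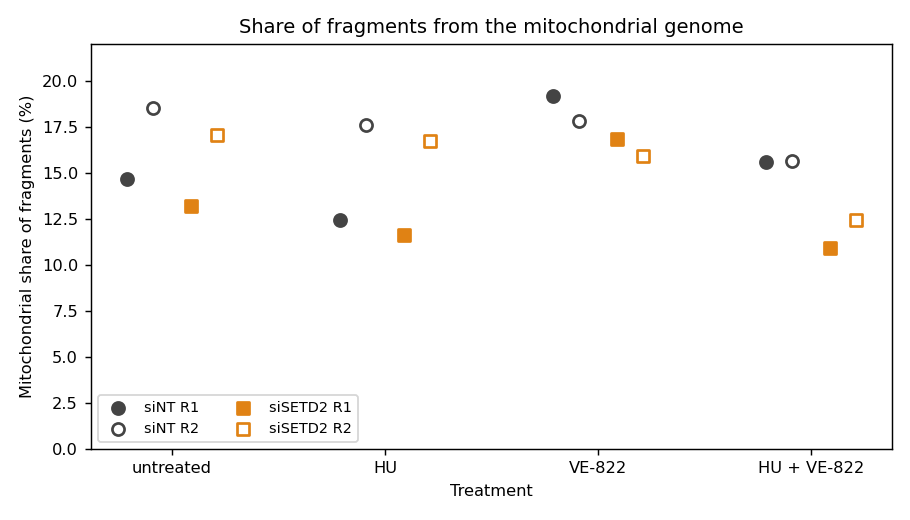
Percentage of fragments from the 37 mitochondrial genes in each library, by treatment (circles siNT, squares siSETD2, filled R1, open R2). The lowest value is that of siSETD2 with HU and VE-822 R1, at 10.9%, and the highest that of siNT with VE-822 R1, at 19.2%.

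The clearest change among the members was in 5 tRNAs after HU with VE-822. MT-TG (glycine), MT-TR (arginine), MT-TH (histidine), MT-TS2 (serine, AGY codons) and MT-TL2 (leucine, CUN codons) were lower with HU and VE-822 than in untreated cells, with log2 fold changes of -1.91 to -1.72 averaged over both siRNAs, and they were called in the blocked fit. MT-TG had means of 148 ± 68.1 FPKM (SD, n = 4) untreated and 39.3 ± 17.05 FPKM with HU and VE-822. The mRNAs on either side of them were not called in the blocked fit. Together with 4 further tRNAs, 9 of 37 members fell and none rose in the blocked fit, beside 3.23% of the 13088 genes that fell. In the fit without the block 0 members were called by limma (0.0382% of all genes), 14 had an unadjusted p under 0.05 (13.6% of all genes), and the 5 tRNAs had adjusted p-values of 0.0515 to 0.0829.

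Values by library show where these differences lie, each in the order given above. MT-TG was at 168, 100.3, 235 and 87.2 FPKM untreated, 65.8, 70.2, 96.7 and 73.1 with HU, 89.3, 49.9, 47.6 and 38.1 with VE-822 and 63.01, 24.03, 39.4 and 30.5 with both. MT-TR was at 119, 86.4, 240.4 and 68.9 FPKM untreated, 48.4, 60.5, 59.2 and 35.5 with HU, 87.4, 86.5, 51.8 and 57.9 with VE-822 and 52.8, 17.95, 39.4 and 20.3 with both. All 4 libraries with HU and VE-822 were below all 4 untreated ones for both genes, and the untreated siSETD2 R1 library was the highest of the 16.

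MT-TH, the first of the 3 abutting genes, was at 293, 233, 435 and 137 FPKM untreated, 114, 113, 119.7 and 129 with HU, 129, 151, 114 and 128 with VE-822 and 113, 55.5, 93.2 and 56.4 with both. MT-TS2 was at 72.6, 62.03, 112 and 43.9 FPKM untreated, 30.9, 24.6, 34.2 and 20.6 with HU, 36.8, 61.4, 46.2 and 52.1 with VE-822 and 29.97, 16.6, 16.05 and 16.004 with both. MT-TL2 was at 63.3, 37.5, 56.7 and 38.7 FPKM untreated, 28.9, 17.8, 21.6 and 29.2 with HU, 19.99, 30.4, 23.5 and 21.1 with VE-822 and 26.3, 7.23, 14.4 and 7.98 with both. For each of the 3, the untreated libraries again did not overlap those with HU and VE-822 or those with HU, and for MT-TL2 they did not overlap those with VE-822 either. Behind the values stood 35 to 405 fragments per library for MT-TG, 25 to 396 for MT-TR, 82 to 761 for MT-TH, 21 to 168 for MT-TS2 and 11 to 108 for MT-TL2, so the lowest levels rest on few fragments.

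In the blocked fit MT-TS2 fell with HU and VE-822 against untreated cells by 1.81 (SE 0.207, adjusted p = 0.00255) on the log2 scale. The change was -1.91 (SE 0.264, adjusted p = 0.00474) for MT-TR and -1.88 (SE 0.256, adjusted p = 0.00474) for MT-TL2. For MT-TG it was -1.86 (SE 0.250, adjusted p = 0.00474), and for MT-TH -1.72 (SE 0.238, adjusted p = 0.00474). These 5 calls were present in each of 16 fits with the block that left out 1 library, with log2 fold changes from -2.20 to -1.41 and adjusted p-values of up to 0.0300 (limma). They were also present in a fit by voom on the recovered fragments with the same block, at adjusted p-values of 0.000447 (MT-TG) to 0.00114 (MT-TL2), where 16 members were called, all lower, beside 9.87% of all genes called in either direction. Those 16 included the mRNAs MT-CO3, next to MT-TG, and MT-ATP6. Without the block voom called 0 members (0.0535% of all genes). With limma and the block over all 8 groups 7 members were called, the 5 tRNAs among them (3.16% of all genes).

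The other 4 tRNAs that fell in the blocked fit were weaker. They were MT-TA (alanine) at -1.36 (SE 0.307, adjusted p = 0.0274), MT-TQ (glutamine) at -1.24 (SE 0.323, adjusted p = 0.0440), MT-TK (lysine) at -0.66 (SE 0.173, adjusted p = 0.0449) and MT-TW (tryptophan) at -0.99 (SE 0.266, adjusted p = 0.0486). When 1 library was left out, MT-TA kept its call in 11 of 16 fits, MT-TQ in 5, MT-TK in 3 and MT-TW in 1. The libraries whose omission ended the call of MT-TA were both siNT and both siSETD2 libraries with HU and VE-822 and the untreated siSETD2 R2. MT-TA and MT-TW were counted with 2 to 24 and 7 to 40 fragments per library.

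As classes, 20 of 22 tRNA genes were lower with HU and VE-822 than untreated, with a median log2 fold change of -1.01, against -0.19 for the 13 protein genes, -0.29 for the 2 rRNA genes and 0.02 for all genes tested. For 10 tRNA genes and 0 protein genes, all 4 libraries with HU and VE-822 were below all 4 untreated libraries, beside 3.12% of all genes. MT-TT, the threonine tRNA, was lower by a similar size without a call (-1.84 (SE 0.580, adjusted p = 0.0786)). Its 2.29 FPKM in siSETD2 with HU and VE-822 R2 was the lowest of its values. The 2 tRNA genes that were higher were MT-TN (0.59 (SE 0.310, adjusted p = 0.249)), the highest of the 37, and MT-TC (0.17 (SE 0.191, adjusted p = 0.589)), neither called. MT-TN was at 1892, 2119.9, 4386 and 1348 FPKM untreated, 2568, 2632, 2773 and 1952 with HU, 1820.4, 3257, 3079 and 4384 with VE-822 and 2659, 3485, 4695 and 2833 with both. Untreated libraries overlapped those of each treatment, though for HU with VE-822 only through untreated siSETD2 R1. The R1 and R2 libraries of untreated siSETD2 differed by more than any treatment means.

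The mRNAs next to the 5 tRNAs differed less. Beside MT-TG and MT-TR, log2 fold changes were -0.30 (SE 0.114, adjusted p = 0.129) for MT-CO3, 0.15 (SE 0.164, adjusted p = 0.594) for MT-ND3 and 0.32 (SE 0.176, adjusted p = 0.276) for MT-ND4L. On either side of MT-TH, MT-TS2 and MT-TL2 they were -0.14 (SE 0.117, adjusted p = 0.460) for MT-ND4 and -0.20 (SE 0.114, adjusted p = 0.277) for MT-ND5. None was called. Fragments over a tRNA gene can come from the cut tRNA or from a longer transcript that spans it, and the deposited values do not separate these. The 5 tRNA genes abut both of their neighbours without a spacer base. How fragments that reach into 2 genes were counted is not given in the sources used here. The levels of these tRNA genes are therefore uncertain as measures of either RNA. Against untreated cells, 274 nuclear genes of at most 110 bases had median log2 fold changes of -0.019 with HU, 0.092 with VE-822 and 0.027 with both. With both drugs the median was 0.159 for 39 snoRNA genes, 0.033 for 119 miRNA genes and -0.151 for 61 snRNA genes. The part of gene length in the tRNA result was not tested. The summed level of 16 RNAs that mark how RNA was prepared (nuclear-retained or not polyadenylated, 7 of them at 0 in every library) was 213 to 316 FPKM untreated, 188 to 279 with HU, 254 to 365 with VE-822 and 248 to 299.6 with both. The nuclear-retained NEAT1 made up much of it, at 75.9 to 177 FPKM untreated and 92.8 to 148 with both. Of the 5 that passed the filter, MALAT1, HIST1H1C and HIST1H2AC overlapped between untreated cells and those with both drugs. They were at 44.04 to 74.9, 41.4 to 114 and 8.63 to 32.2 FPKM untreated. With both they were at 44.4 to 63.9, 64.4 to 99.8 and 9.07 to 23.8 FPKM. RN7SL2, a signal recognition particle RNA that is not polyadenylated, was higher with both drugs. With HU alone its median was 5.33 FPKM, against 5.66 untreated. It was at 4.45 to 7.76 FPKM untreated, 4.24 to 9.26 with HU, 7.23 to 17.98 with VE-822 and 8.05 to 21.9 with both, and rose with HU and VE-822 against untreated cells in the blocked fit by 1.19 (SE 0.260, adjusted p = 0.0237). The part of these RNAs in the tRNA result was not tested.

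**Figure D3:**
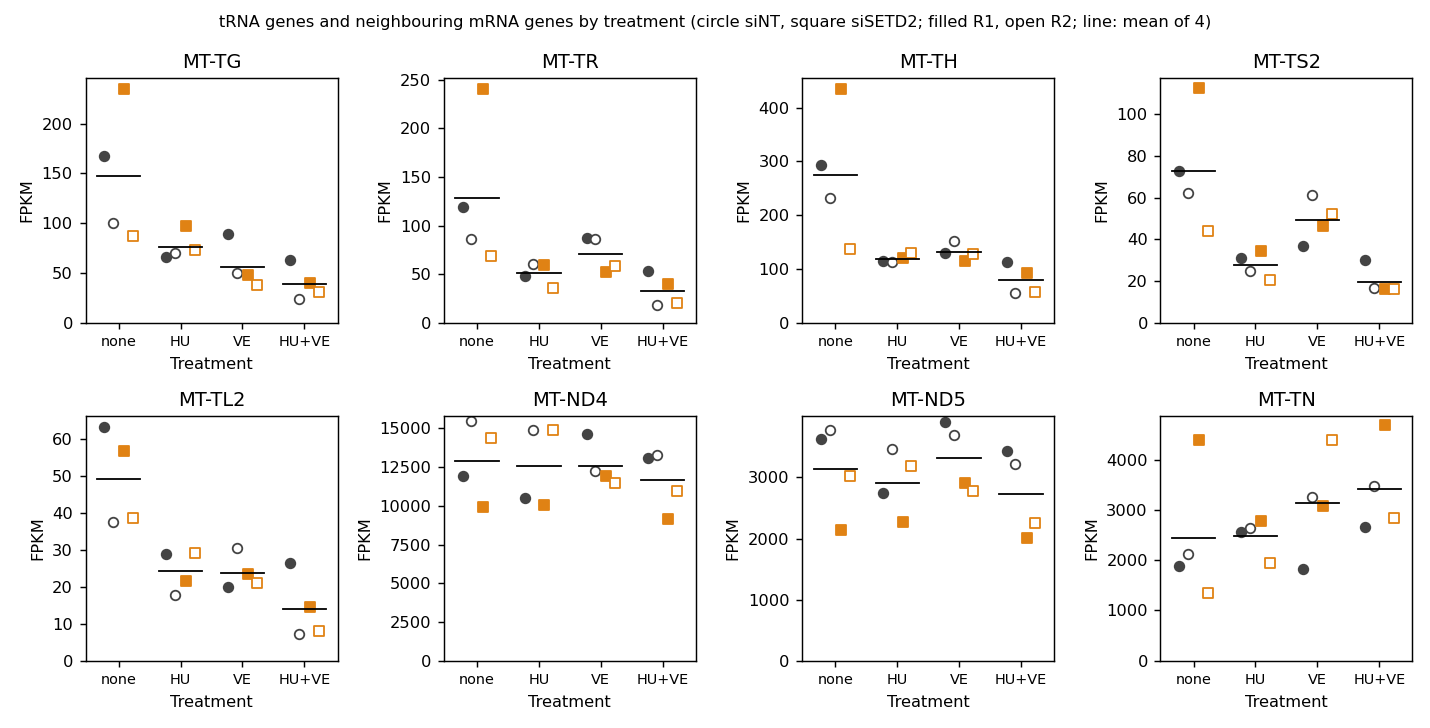
FPKM in each library of 5 tRNA genes, the mRNA genes MT-ND4 and MT-ND5 and the tRNA gene MT-TN, by treatment (circles siNT, squares siSETD2, filled R1, open R2, line for the mean of 4 libraries). For the 5 tRNA genes all libraries with HU and VE-822 are below all untreated ones, and for MT-ND4, MT-ND5 and MT-TN they overlap.

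With HU alone the 5 tRNAs were lower by a smaller amount, and MT-TS2 was the one called. In the blocked fit 1 member was called, MT-TS2, at -1.31 (SE 0.207, adjusted p = 0.0150), the lowest of the 37, beside 0.749% of all genes that fell. The block over all 8 groups called 0 members (0.344% of all genes), with MT-TS2 at an adjusted p of 0.0687 (limma). In the blocked fit its call was lost in 5 of 16 fits that left out 1 library, those without untreated siNT R2 or any of the 4 HU libraries. MT-TH (-1.08 (SE 0.238, adjusted p = 0.0532)), MT-TR (-1.18 (SE 0.264, adjusted p = 0.0542)), MT-TL2 (-0.97 (SE 0.256, adjusted p = 0.0899)) and MT-TG (-0.84 (SE 0.250, adjusted p = 0.124)) were not called by limma and were called, with MT-TS2, by voom with the block, which called 3.04% of all genes. MT-TY had the highest fold change, 0.17 (SE 0.268, adjusted p = 0.824), and it turned to -0.10 without untreated siSETD2 R1. Without the block 0 members were called by limma (0.107% of all genes) or voom (0.0917%), and 7 had an unadjusted p under 0.05 in limma (7.58%). MT-TR, MT-TH, MT-TS2 and MT-TL2 had all 4 HU libraries below all 4 untreated libraries, beside 2.19% of all genes. Within R1 the median difference of the 22 tRNA genes was -1.02 and within R2 -0.11. For MT-TS2 it was -1.45 and -1.18, and for MT-TG -1.30 and -0.38.

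Adding VE-822 to HU gave 0 calls among the members. This held for limma and voom without the block (0.00764% and 0.0153% of all genes called) and with it (1.31% and 2.70%). Without the block 5 members had an unadjusted p under 0.05 in limma (8.34% of all genes). The lowest adjusted p-value in the blocked fit was that of MT-TG, at -1.02 (SE 0.250, adjusted p = 0.0742). MT-TT had the lowest fold change at -1.40 (SE 0.580, adjusted p = 0.235) and MT-ND3 the highest at 0.45 (SE 0.164, adjusted p = 0.185). MT-TW, MT-TG and MT-TH had all 4 libraries with both drugs below all 4 with HU, beside 2.87% of all genes. The comparisons with untreated cells share their untreated libraries, so the values of HU and of HU with VE-822 against untreated are not independent.

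The comparisons with VE-822 alone ran against a large background, since 13.4% of all genes fell and 11.4% rose against untreated cells. Without the block 2 of 37 members fell, MT-TG at -1.34 (SE 0.360, adjusted p = 0.0221) and MT-TK at -0.79 (SE 0.249, adjusted p = 0.0395) (limma), and the count ran from 0 to 5 when 1 library was left out, with 0 without untreated siNT R1, siNT with VE-822 R2 or either siSETD2 library with VE-822. The blocked fit called 10 members, beside 44.9% of all genes, of which the tRNAs MT-TG, MT-TR, MT-TH, MT-TL2, MT-TI, MT-TQ and MT-TK fell and MT-CO3, MT-ATP8 and MT-RNR2 rose. In limma without the block MT-RNR2 had the highest fold change, 0.59 (SE 0.239, adjusted p = 0.0932), and was not called. Its 4 libraries were all above the untreated ones, as for no other member and 14.6% of all genes. MT-TI, MT-TK and MT-TL2 had all 4 VE-822 libraries below the untreated ones, beside 16.5% of all genes. The rRNA levels were highest here: MT-RNR2 was at 11691, 16532, 10007 and 12360.0 FPKM untreated, 9104, 16613, 7388 and 13300.2 with HU, 20804, 18837, 18026 and 17335 with VE-822 and 12305, 14379.7, 7324 and 9609 with both. MT-RNR1 was at 3149.9, 4023, 3372 and 2901 FPKM untreated, 2232, 3812, 2091 and 2834 with HU, 4918, 4620.3, 3943 and 4076 with VE-822 and 3749, 3074, 2010.2 and 2065 with both. MT-RNR1 overlapped between untreated and VE-822 libraries by a single pair of values.

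Against VE-822 alone, HU with VE-822 had 8 members lower and 0 higher in limma without the block, beside 12.0% of all genes that fell and 17.5% that rose. They were both rRNAs, the mRNA MT-CO2 and the tRNAs MT-TW, MT-TA, MT-TR, MT-TS2 and MT-TT. MT-RNR1 changed by -0.73 (SE 0.180, adjusted p = 0.0125) and MT-RNR2 by -0.82 (SE 0.239, adjusted p = 0.0254). MT-CO2 changed by -0.58 (SE 0.198, adjusted p = 0.0489). Among the tRNAs, MT-TT was lowest at -2.06 (SE 0.581, adjusted p = 0.0226), with MT-TS2 at -1.31 (SE 0.296, adjusted p = 0.00871), MT-TR at -1.19 (SE 0.410, adjusted p = 0.0488), MT-TW at -1.08 (SE 0.285, adjusted p = 0.0169) and MT-TA at -0.99 (SE 0.308, adjusted p = 0.0341). MT-TN was highest at 0.16 (SE 0.344, adjusted p = 0.754). Leaving out 1 library gave 2 to 9 calls, with 2 to 5 without any 1 of the libraries of VE-822 alone or without siNT R2, siSETD2 R1 or siSETD2 R2 of HU with VE-822. The blocked fit called 18 members, all lower, beside 48.9% of all genes. This comparison and that of VE-822 alone with untreated cells both rest on the 4 libraries that stood apart.

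**Figure D4:**
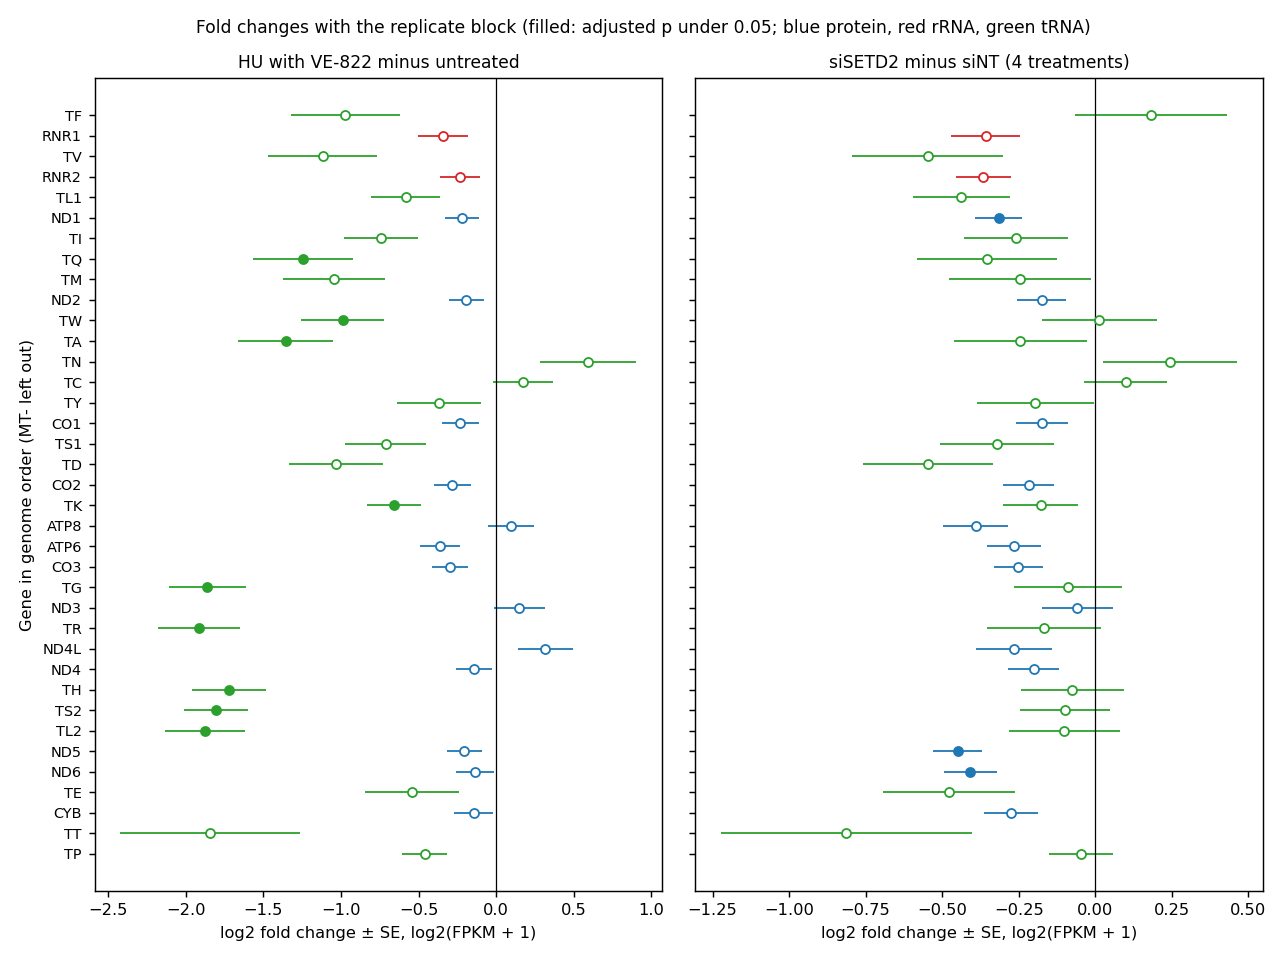
Log2 fold change with its SE (bars) of the 37 genes in genome order, from the blocked fit, for HU with VE-822 against untreated cells (left) and for siSETD2 against siNT averaged over 4 treatments (right). Filled points have an adjusted p under 0.05: 9 tRNA genes on the left and MT-ND1, MT-ND5 and MT-ND6 on the right.

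With SETD2 siRNA, 3 of the 13 mitochondrial mRNAs fell in the blocked fit, and all 3 calls depended on how the replicate block was set. Averaged over 4 treatments, MT-ND5 (-0.45 (SE 0.0803, adjusted p = 0.0156)), MT-ND6 (-0.41 (SE 0.0864, adjusted p = 0.0295)) and MT-ND1 (-0.32 (SE 0.0766, adjusted p = 0.0485)) fell in the blocked fit, beside 2.22% of all genes that fell. All 3 encode complex I subunits. With the block over all 8 groups 0 members were called (1.12% of all genes), and the 3 genes had adjusted p-values of 0.0561, 0.0705 and 0.163 (limma). The other 4 complex I mRNAs, MT-ND2, MT-ND3, MT-ND4 and MT-ND4L, were not called. Without the block 0 members were called by limma (0.130% of all genes) or voom (0.0535%), 4 had an unadjusted p under 0.05 in limma (10.0%), and the adjusted p-values of the 3 genes were 0.139, 0.195 and 0.410. By library, MT-ND5 was at 3624, 3785, 2137 and 3021 FPKM untreated, 2741, 3469, 2266 and 3189.9 with HU, 3905, 3703, 2908 and 2783 with VE-822 and 3437, 3214, 2016 and 2259 with both. MT-ND6 was at 3125, 3662, 2700.5 and 2707 FPKM untreated, 2772, 3403, 2021 and 3345 with HU, 3728, 4037, 2973 and 3034 with VE-822 and 3557, 3456, 1966 and 2363 with both. MT-ND1 was at 8398, 9575, 6645 and 8069.5 FPKM untreated, 6654, 9946, 5736 and 8820.3 with HU, 7725, 7269, 6344 and 6302 with VE-822 and 7647, 9155, 5518 and 6069 with both. Each of the 3 was lower with siSETD2 in all 6 pairs of equal number outside VE-822 alone, as were the mRNAs MT-ND4, MT-ATP6, MT-CO3 and MT-CYB, in all 10 of 37 members beside 8.77% of all genes, yet over 8 against 8 libraries 0 members were free of overlap (0.168% of all genes were lower without overlap).

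The calls of MT-ND6 and MT-ND1 rested on all libraries being in the fit. MT-ND5 kept its call in 13 of 16 fits that left out 1 library (lost without untreated siNT R1, siSETD2 with HU R1 or siSETD2 with VE-822 R2), MT-ND6 in 4 and MT-ND1 in 1. Within R1 the differences averaged over the treatments were -0.56 for MT-ND5, -0.46 for MT-ND6 and -0.33 for MT-ND1, and within R2 -0.34, -0.36 and -0.31. MT-ND5 and MT-ND6 are neighbours on opposite strands. Among the RNA preparation markers NEAT1 rose with siSETD2 in the blocked fit by 0.45 (SE 0.0772, adjusted p = 0.0134), and its part in these differences was not tested. With voom and the block 6 members were called, all lower, which added MT-RNR1, MT-RNR2 and MT-ATP8, beside 5.58% of all genes. MT-TN had the highest fold change at 0.24 (SE 0.219, adjusted p = 0.567) and MT-TT the lowest at -0.81 (SE 0.410, adjusted p = 0.288).

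None of the 5 tRNAs with the clearest difference for HU with VE-822 was called for the siRNA. The change with siSETD2 was -0.09 (SE 0.177, adjusted p = 0.815) for MT-TG, -0.17 (SE 0.186, adjusted p = 0.653) for MT-TR, -0.08 (SE 0.168, adjusted p = 0.836) for MT-TH, -0.10 (SE 0.146, adjusted p = 0.743) for MT-TS2 and -0.10 (SE 0.181, adjusted p = 0.793) for MT-TL2, none of them called. MT-CYB was at 5829, 7338, 4714 and 6605 FPKM untreated, 5311, 7492, 4434 and 7262 with HU, 7807, 6530.3, 5855 and 5808 with VE-822 and 6421, 6273, 4314 and 5135 with both. MT-CO1 was at 21419, 27154, 19282 and 25194 FPKM untreated, 17976, 28233, 18106 and 25359.8 with HU, 29109, 24047, 25500.0 and 23195 with VE-822 and 21339.5, 23476, 16563 and 18004 with both. For both genes, siNT and siSETD2 libraries overlapped in every treatment except HU with VE-822, and for MT-CYB also VE-822 alone.

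MT-ATP6 was at 15085, 21288, 12871 and 19728 FPKM untreated, 12424, 19112, 10998 and 18842 with HU, 21150.4, 17534, 15372 and 15506 with VE-822 and 15016, 15998, 9927 and 12515 with both. MT-ATP8 was at 1501, 2012, 884 and 1102 FPKM untreated, 1261, 1712, 1024 and 1946 with HU, 1667, 2132, 2039 and 1786 with VE-822 and 1642, 1947, 758 and 1586 with both. Neither was called for the siRNA by limma, and MT-ATP8 was called by voom with the block. Both siSETD2 libraries were below both siNT libraries for MT-ATP8 untreated and with both drugs, and for MT-ATP6 with VE-822 and with both drugs.

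Treatment by treatment, 0 members were called for siSETD2 against siNT in limma or voom without the block (0% of all genes) or in limma with it (0.00764% untreated, 0% with HU, 0.0458% with VE-822 and 0% with both). In limma without the block, 1 member in untreated cells (4.42% of all genes), 0 with HU (2.57%), 0 with VE-822 (2.93%) and 4 with both (2.18%) had an unadjusted p under 0.05. The fold changes from the blocked fit ran, in untreated cells, from -0.82 (SE 0.212, adjusted p = 0.234) for MT-ATP8 to 0.86 (SE 0.434, adjusted p = 0.473) for MT-TA. With HU they ran from -0.62 (SE 0.820, adjusted p = 0.931) for MT-TT to 0.30 (SE 0.354, adjusted p = 0.923) for MT-TG, and with VE-822 from -0.90 (SE 0.496, adjusted p = 0.726) for MT-TV to 0.59 (SE 0.438, adjusted p = 0.814) for MT-TN. With both drugs they ran from -1.63 (SE 0.820, adjusted p = 0.828) for MT-TT to 0.40 (SE 0.376, adjusted p = 0.949) for MT-TW, and here 23 of 37 members, 11 of the 13 protein genes among them, had both siSETD2 libraries below both siNT libraries, beside 11.2% of all genes. The corresponding counts were 5 of 37 untreated (13.5% of all genes), 1 of 37 with HU (16.3%) and 15 of 37 with VE-822 (23.1%).

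Whether the siRNA difference itself changed with a drug was tested directly, and 0 members were called for any of the 3 drug treatments in limma with or without the block or in voom without it (0% of all genes in each). Without the block 0, 0 and 1 members had an unadjusted p under 0.05 in limma for HU, VE-822 and both (0.741%, 1.73% and 1.12% of all genes). In the blocked fit the lowest value was MT-TA for each, at -1.25 (SE 0.614, adjusted p = 1) for HU, -1.03 (SE 0.614, adjusted p = 0.889) for VE-822 and -2.16 (SE 0.614, adjusted p = 0.999) for both. The highest in that fit were MT-ATP8 at 0.76 (SE 0.300, adjusted p = 1) and 0.83 (SE 0.300, adjusted p = 0.743) for HU and VE-822 and MT-ND4L at 0.42 (SE 0.353, adjusted p = 0.999) for both.

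**Figure D5:**
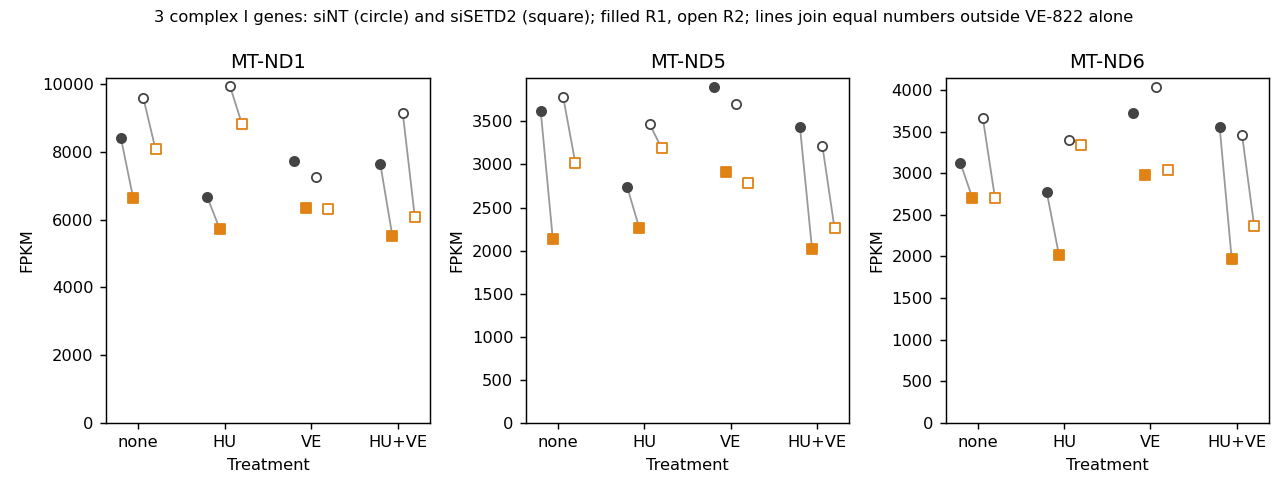
FPKM of MT-ND1, MT-ND5 and MT-ND6 in each library by treatment (circles siNT, squares siSETD2, filled R1, open R2), with lines that join libraries of equal number outside VE-822 alone. Each of the 6 lines of each gene runs downward from siNT to siSETD2.

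Correlations across libraries differed between sets of members. As a description over 16 libraries, which share depth scaling and the R1 and R2 split, the 13 mRNAs correlated with one another with a median r of 0.734 (0.161 to 0.965, 78 pairs). MT-TG, MT-TR, MT-TH, MT-TS2 and MT-TL2 correlated with one another with a median of 0.877 (0.710 to 0.941, 10 pairs). With the 13 mRNAs these tRNAs had a median of 0.0586 (-0.597 to 0.360, 65 pairs). These 5 were chosen from the same libraries after their shared difference was seen. Their correlations are therefore in part set by that choice and test nothing. MT-TN and MT-TC correlated with each other at 0.815. Part of the mRNA pattern was the replicate number: 9 of 13 mRNAs were lower in R1 than in R2 in all 6 groups outside VE-822 alone, as were 13 of 37 members beside 19.2% of all genes. MT-TS2 was the one member higher in R1 in all 6 (17.5% of all genes). The ratio of MT-ND6 to the median of the other 12 mRNAs stayed between 0.244 and 0.363 (median 0.301).

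Nuclear genes of the same machinery were compared from lists of known function. Of 78 nuclear subunits of the respiratory complexes and ATP synthase, 76 were tested and 0 were called in limma, with or without the block, for siSETD2 averaged over treatments, for HU or for HU with VE-822 against untreated cells. Their median log2 fold changes were 0.03, -0.01 and 0.14, while those of the 13 mitochondrial mRNAs were -0.26, -0.09 and -0.19. Against untreated cells, VE-822 alone had 1 nuclear subunit higher and 7 lower without the block, beside 11.4% of all genes that rose and 13.4% that fell. None of the 79 mitochondrial ribosomal proteins was called without the block for HU, for HU with VE-822 or for siSETD2 averaged over treatments. In the blocked fit MRPL49 rose with HU and VE-822 by 0.37 (SE 0.0943, adjusted p = 0.0415).

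Among 10 genes of mitochondrial transcription, TFAM, which packages mitochondrial DNA and starts transcription, rose in the blocked fit with HU and VE-822 (0.41, SE 0.105, adjusted p = 0.0435) and with siSETD2 (0.32, SE 0.0743, adjusted p = 0.0412). The other 9, POLRMT among them (-0.12, adjusted p = 0.459 with HU and VE-822), were not called. Of 22 genes of mitochondrial RNA processing, 1 was called for siSETD2, the poly(A) polymerase MTPAP (-0.26, SE 0.0519, adjusted p = 0.024), and 0 for HU or for HU with VE-822. LRPPRC was at -0.06 (adjusted p = 0.71) with HU and VE-822. Of 16 genes of mitochondrial DNA replication and nucleotide supply, POLG2, the accessory subunit of the mitochondrial DNA polymerase, fell with HU (-0.35, SE 0.0681, adjusted p = 0.0336) and with HU and VE-822 (-0.28, SE 0.0681, adjusted p = 0.0366). SLC25A33, a mitochondrial pyrimidine nucleotide carrier, rose with HU and VE-822 (0.33, SE 0.0752, adjusted p = 0.0283), and RRM2B, a ribonucleotide reductase subunit, fell with siSETD2 (-0.32, SE 0.0626, adjusted p = 0.024). None of the 8 regulators of mitochondrial biogenesis tested was called in these 3 comparisons. Beside these calls and that of MRPL49, 2.22% of all genes fell in the blocked fit with siSETD2, 0.749% with HU and 3.23% with HU and VE-822. Whether calls in these lists exceed the share over all genes was not tested. Without the block none of these genes was called.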

How the data were processed

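RNA-seq libraries of U2OS cells were analysed from 1 table of FPKM values deposited by the authors, for 58735 genes and 16 libraries. Per the submitters' processing notes, the upstream tools were DESeq2 1.26.0, featureCounts 1.5.0-p3, FastQC and STAR 2.6.1d on build hg38, with counting options, use of strand and the annotation not given in the sources used here. All 58735 gene identifiers occur in GENCODE 29, which gave positions, lengths and tRNA sequences. FPKM times gene length gave whole fragments (within 0.01) for 100% of values.

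Groups follow the labels. limma 3.58.1 (R 4.3.3, trend) was run on log2(FPKM + 1) with 8 group means, for genes whose mean reached 1 FPKM, in 13 contrasts, with the Benjamini-Hochberg adjustment; the pseudocount understates changes of low genes. The difference R1 minus R2 correlated across genes between groups at 0.363 to 0.746 in 15 pairs of the 6 groups outside VE-822 alone, and at -0.0517 to 0.295 in 12 pairs with 1 VE-822-alone group, and at 0.395 between the 2 VE-822-alone groups. The replicate block was therefore used in those 6 groups; the pairing comes from these data and the shared numbers. Alternatives were other pseudocounts, filters, scalings and blocks, voom, and leaving out each library. Scripts were tested on simulated data. The members and lists were chosen with earlier results of these data known. Named with fold changes were members called with or without a block and the highest and lowest of each contrast; values by library are given for 1 gene per role and for the 5 tRNAs, which were chosen after their values were seen.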

Additional observations from a re-analysis of the deposited data

How the results depend on the processing

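The count of members called changed mainly with the replicate block. For siSETD2 against siNT averaged over 4 treatments it was 0 without a block, 3 with the replicate block in 6 groups, 2 with that block and scaling to totals outside the mitochondrial genome, 3 with that block and median-of-ratios scaling outside it, and 6 with that block and voom. In the same order of blocked settings the counts were 1, 3, 1 and 5 for HU against untreated (0 without a block), 9, 9, 9 and 16 for HU with VE-822 against untreated (0), 10, 10, 10 and 13 for VE-822 against untreated (2), and 18, 19, 18 and 22 for HU with VE-822 against VE-822 (8). The replicate block over all 8 groups gave 7 for HU with VE-822 against untreated, 6 for VE-822 against untreated, 12 for HU with VE-822 against VE-822, and 0 for HU against untreated and for siSETD2 averaged over treatments. Without a filter on low values, 0 members were called for VE-822 against untreated and 2 for HU with VE-822 against VE-822, and with a filter at a mean of 5 FPKM 1 was called for HU with VE-822 against untreated; the cause was not tested. The blocked settings with another scaling or voom, and leaving out libraries with the block, were chosen after seeing the data. The block changed no count of the other contrasts.

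Leaving out each library in turn gave, without the block, 0 to 1 calls for siSETD2 averaged over treatments, 0 to 5 for VE-822 and 0 to 4 for HU with VE-822 against untreated, 2 to 9 for HU with VE-822 against VE-822, and 0 for every other contrast. With the replicate block these were 0 to 5, 6 to 11, 5 to 8 and 8 to 21, with 0 to 3 for HU against untreated, 0 to 1 for HU with VE-822 against HU and 0 to 2 for siSETD2 in untreated cells. Without 1 library the log2 fold change changed sign for some members, none of which was called with all libraries in the fit. Its lowest and highest values were -0.073 to 1.80 for MT-TA and siSETD2 in untreated cells; with HU, -0.17 to 0.78 for MT-TG and -1.69 to 0.45 for MT-TT and siSETD2; -0.10 to 0.44 for MT-TY and HU against untreated; -0.079 to 0.39 for MT-TN and HU with VE-822 against VE-822; and -0.27 to 1.11 for MT-ND4L and the difference of the siSETD2 effect between HU with VE-822 and untreated cells.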

Other observations

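By name, the deposited values also include 407 nuclear copies of mitochondrial genes. Copies that are close in sequence to a member can take fragments from it, and their sequences were not compared here. Of the 407 copies, 268 were at 0 in every library and 6 passed the filter of a mean of 1 FPKM. Their summed level was 443 to 715 FPKM untreated, 314 to 892 with HU, 587 to 1244 with VE-822 and 534 to 1359 with HU and VE-822. These ranges overlapped, but they pool R1 with R2. In R2 libraries the copy MTATP6P1 was at 520 to 592 FPKM untreated, 1030 to 1092 with VE-822 and 904 to 1196 with both. In R1 libraries it was at 360 to 465, 485 to 574 and 431 to 488 FPKM in that order. MTCO1P12, MTCO2P12, MTCO3P12 and MTND1P23 were also above untreated in R2 with VE-822 and with both. In R2 MTND2P28 overlapped with VE-822 and was lower with both. The sums were within the range of MT-ATP8 in part, and the highest sum was below the lowest value of each of the other 12 mRNAs.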
